A study of Mus musculus with 4 samples.

Results

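Germline genes that somatic cells keep silent through promoter methylation were examined in cervical motor neuron (MN) cultures with and without PATZ1. The group holds 10 autosomal genes, *Dazl*, *Ddx4*, *Mael*, *Sycp1*, *Sycp3*, *Stk31*, *Asz1*, *Slc25a31*, *Tdrd1* and *Brdt*, taken by symbol from the 23420 genes in the count files. The wild type (WT) cultures came from E14 mouse embryonic stem cells (ESCs), and the *Patz1* -/- (*Patz1* KO) cultures came from E14 cells in which CRISPR/Cas9 had been directed at *Patz1*, with 2 libraries for each genotype. All ESCs had been grown in LIF with inhibitors of MEK and GSK3, and embryoid bodies were then patterned with retinoic acid and a smoothened agonist. Replicates were independent differentiations according to the study's methods. Several *Patz1* KO clones were made, and the labels do not say which clone or clones gave these libraries.

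Promoters of this class are rich in CpG dinucleotides, the sites of DNA methylation in mammals. They acquire methylation in the early embryo, chiefly through DNMT3B, and then stay methylated and silent in somatic tissues. The same promoters are bound by a Polycomb complex, PRC1.6, which contains the DNA-binding factors E2F6 and MGA with its partner MAX. Germ cells erase this methylation and switch the genes on for meiosis, for the piRNA pathway that silences transposons, and for the building of sperm. ESCs held with the 2 inhibitors have little DNA methylation and are known to transcribe many of these genes at a low level.

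Reads were counted per gene symbol, with totals from 14769104 to 15728158 in the WT and from 17402342 to 23881522 in the *Patz1* KO libraries. *Patz1* gave 1363 and 1499 reads in WT against 1154 and 714 in *Patz1* KO (log2 fold change -1.04), so its transcript was lowered but still counted. Among 12 markers of motor neurons and neurons, 9 were higher in *Patz1* KO and 0 were lower, beside 24.1% higher and 23.8% lower of all genes tested. *Chat*, which makes acetylcholine, rose by 0.99, and the motor neuron transcription factor genes *Mnx1* and *Lhx4* rose by 0.88 and 0.87 on the log2 scale. The summed level of these markers was 2231 to 2482 CPM (counts scaled to library depth) in WT and 3144 to 3656 CPM in *Patz1* KO, most of it from *Tubb3*, a tubulin gene of all neurons. The cultures are mixed, and fewer cells of a type cannot be told apart from less RNA per cell. All fold changes below are *Patz1* KO over WT. They and their p-values are those of edgeR's quasi-likelihood test, and the p-values carry a Benjamini-Hochberg adjustment over the 14269 genes tested. A gene was called at an adjusted p below 0.05.

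The promoters of the 4 genes that were called in this comparison are shown here because their CpGs are where silencing by methylation would act. They come from the RefSeq annotation of GRCm38.p6, the assembly of mm10, and run from 250 bases before to 50 bases after the first listed transcription start on the gene's own strand. All CpGs are in capitals. *Stk31* lies at chr6:49395289-49395588 on the plus strand, *Brdt* at chr5:107330944-107331243 on the plus strand, *Slc25a31* at chr3:40708621-40708920 on the plus strand and *Dazl* at chr17:50293571-50293870 on the minus strand.
Stk31: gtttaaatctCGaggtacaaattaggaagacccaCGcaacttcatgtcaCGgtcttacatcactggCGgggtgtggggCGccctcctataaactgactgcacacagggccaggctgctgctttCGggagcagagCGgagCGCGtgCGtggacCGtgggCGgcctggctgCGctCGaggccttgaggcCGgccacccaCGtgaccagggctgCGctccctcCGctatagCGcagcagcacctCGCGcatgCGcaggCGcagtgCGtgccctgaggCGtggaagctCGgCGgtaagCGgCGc
Brdt: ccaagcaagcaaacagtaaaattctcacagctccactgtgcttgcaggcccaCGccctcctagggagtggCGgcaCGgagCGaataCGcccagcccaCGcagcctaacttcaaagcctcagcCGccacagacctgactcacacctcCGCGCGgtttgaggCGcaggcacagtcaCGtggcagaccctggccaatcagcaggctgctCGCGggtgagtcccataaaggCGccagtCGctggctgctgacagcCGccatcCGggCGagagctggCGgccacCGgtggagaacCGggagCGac
Slc25a31: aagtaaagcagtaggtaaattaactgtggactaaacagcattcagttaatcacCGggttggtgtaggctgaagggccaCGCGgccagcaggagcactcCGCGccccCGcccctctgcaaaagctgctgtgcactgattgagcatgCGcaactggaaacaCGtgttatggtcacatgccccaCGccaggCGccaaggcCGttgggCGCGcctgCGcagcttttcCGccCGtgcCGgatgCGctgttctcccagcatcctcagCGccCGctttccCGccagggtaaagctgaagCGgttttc
Dazl: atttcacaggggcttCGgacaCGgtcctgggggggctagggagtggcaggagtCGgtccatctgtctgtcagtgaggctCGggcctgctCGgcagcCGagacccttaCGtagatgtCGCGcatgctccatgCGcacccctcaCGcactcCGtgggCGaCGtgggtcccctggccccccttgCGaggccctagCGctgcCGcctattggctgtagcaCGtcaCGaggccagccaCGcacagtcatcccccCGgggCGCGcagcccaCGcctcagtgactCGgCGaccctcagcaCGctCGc

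These 4 windows hold 29 CpGs in *Stk31*, 23 in *Brdt*, 22 in *Slc25a31* and 28 in *Dazl*. Promoters were matched for all 10 members, and their CpG number went from 15 in *Sycp3* to 38 in *Ddx4*, with a median of 22.5. The median over 27025 promoters of the same length, 1 for each gene, was 7. All 10 members were thus above the middle of the genome, and *Ddx4* exceeded 95.2% of all promoters. The E-box CACGTG, which MAX and its partners bind, was found in 8 of the 10 promoters and in 7.24% of all promoters. *Dazl* and *Asz1* lack these letters in the window, and *Sycp3* has them at 2 places. GCGGGA, searched on both strands as the core of the E2F6 motif, was present in *Ddx4*, *Mael*, *Sycp1*, *Sycp3* and *Slc25a31*, or 5 of 10, against 20.0% of all promoters. GGGAGGG, the core of the motif of the related zinc finger protein MAZ, was found on either strand in 1 member, *Mael*, beside 21.3% of all promoters, and there it overlaps the match to GCGGGA. Among the 3 members that rose, only *Slc25a31* has a match to GCGGGA, while *Stk31*, *Brdt* and *Slc25a31* each have 1 E-box. CACGTG and GCGGGA each contain a CpG, and the shares over all promoters were not matched for CpG number, which is higher in the members. These matches are a description of the letters, and binding was not analysed here.

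**Figure D1:**
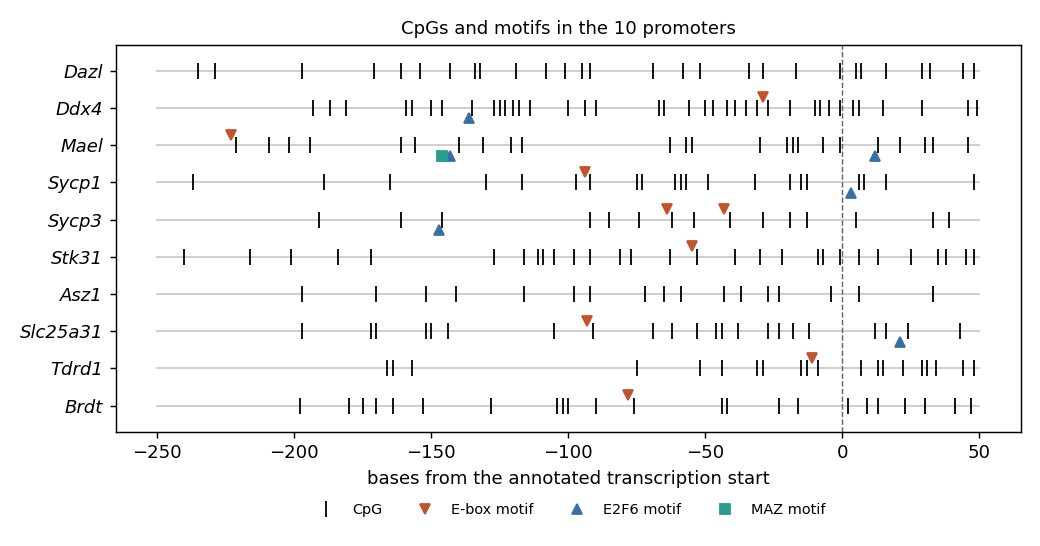
Position of CpGs (ticks) and of matches to the E-box, E2F6 and MAZ motifs (symbols) in the promoters of the 10 germline genes, in bases from the annotated transcription start (dashed line). CpGs number 15 to 38 in each window, and the E-box lies in 8 of 10 windows, at -11 in *Tdrd1* and as far as -223 in *Mael*.

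The 10 genes did not move as a group. Of the 9 that could be tested, 3 were called higher in *Patz1* KO (*Stk31*, *Brdt* and *Slc25a31*), 1 was called lower (*Dazl*), and 5 were not called. Across all genes tested, 47.9% were called, 24.1% higher and 23.8% lower, and among the 1941 genes whose mean CPM lay within the range of the members (1.18 to 4.72 CPM) the share was 41.9%. The 4 of 9 members called therefore stand near the background of this comparison. *Dazl* passed the filter on low counts through its WT libraries only, whereas the other 8 genes passed it in both genotypes. *Stk31* was close to the filter's cutoff in WT replicate 1, where it had 9 reads. The 2 genotypes did not overlap in 7 of the 9, 5 with *Patz1* KO above WT and 2 with it below, and 74.2% of all genes tested were separated in this way. Without WT replicate 2, 1 member was called higher (*Stk31*) and 0 lower. Without *Patz1* KO replicate 2, *Sycp1* and *Sycp3* joined *Dazl* as lower, and without WT replicate 1 *Sycp1* did. The median log2 fold change of the 9 genes was 0.27, against -0.0014 over all genes tested. The summed level of the 10 genes was 24.4 and 29.0 CPM in the WT libraries and 31.3 and 31.6 CPM in the *Patz1* KO libraries.

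**Figure D2:**
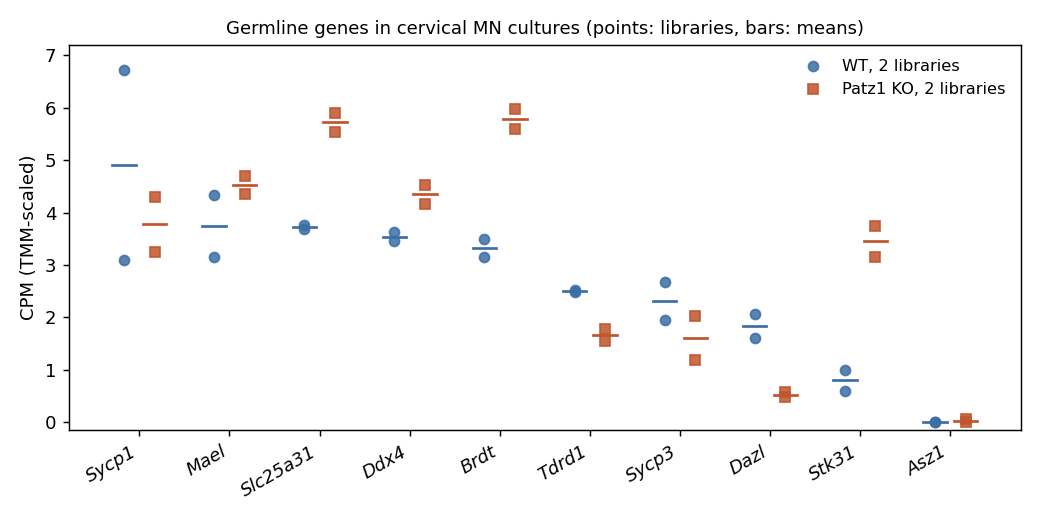
Level of each of the 10 genes in each library, in CPM scaled with edgeR's TMM factors, with WT as circles, *Patz1* KO as squares and bars at the mean of 2 libraries. *Stk31*, *Brdt* and *Slc25a31* are higher in both *Patz1* KO libraries, *Dazl* is lower in both, and the 2 WT libraries of *Sycp1* lie far apart at 3.09 and 6.73 CPM.

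*Stk31* showed the largest change of the group. It encodes a testis protein with a tudor domain and a kinase domain. It gave 9 and 16 reads in WT against 91 and 53 in *Patz1* KO. Both *Patz1* KO libraries were far above both WT libraries. The level went from 0.805 ± 0.284 CPM in WT to 3.46 ± 0.420 CPM in *Patz1* KO (SD, n = 2 each), a rise of 4.27-fold. The log2 fold change was 2.09 with a standard error of 0.345 (edgeR adjusted p = 7.93e-05). The call held in each of the 9 alternatives that tested it, with log2 fold changes from 1.78 to 2.52. In GRCm38 the gene spans chr6:49395604-49469501, and its exons overlap no other annotated gene.

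*Brdt* and *Slc25a31* rose by less. *Brdt* encodes the testis member of the BET family, proteins that read acetylated histones with bromodomains. It gave 52 and 50 reads in WT against 145 and 94 in *Patz1* KO, without overlap once depth was taken into account. Its level went from 3.32 ± 0.245 to 5.79 ± 0.266 CPM (SD, n = 2 each), 1.75-fold higher. For *Brdt* the log2 fold change was 0.81 with a standard error of 0.223 (edgeR adjusted p = 0.00614). Without the library WT replicate 2 the adjusted p of *Brdt* was 0.0747, and the other 9 alternatives called it. The gene spans chr5:107331159-107387058 on the plus strand.

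*Slc25a31*, at chr3:40708855-40726096 on the plus strand, encodes the ADP/ATP carrier of male germ cell mitochondria. It gave 55 and 60 reads in WT against 143 and 93 in *Patz1* KO. The level rose from 3.73 ± 0.0573 to 5.72 ± 0.250 CPM (SD, n = 2 each), or 1.53-fold, so the replicates of each genotype lay close together. The log2 fold change was 0.62 with a standard error of 0.217 (edgeR adjusted p = 0.0254). This call was the least certain of the 4. It was made in 6 of 10 alternatives and was lost with DESeq2's Wald test (adjusted p = 0.136), without WT replicate 1 (0.138), without WT replicate 2 (0.129) and without *Patz1* KO replicate 1 (0.0512), while the log2 fold change stayed between 0.57 and 0.67.

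*Dazl* went the other way. The gene, at chr17:50279395-50293636 on the minus strand, encodes an RNA-binding protein that controls translation in germ cells and is needed for them to enter gametogenesis. It gave 24 and 33 reads in WT but 14 and 8 in *Patz1* KO, although the *Patz1* KO libraries were sequenced more deeply. The level fell from 1.84 ± 0.328 to 0.527 ± 0.0710 CPM (SD, n = 2 each), 3.42-fold lower, with no overlap between genotypes. For *Dazl* the log2 fold change was -1.78 with a standard error of 0.406 (edgeR adjusted p = 0.00154). Of 9 alternatives that tested *Dazl*, 8 called it, and without WT replicate 2 the adjusted p was 0.0525. Because the gene entered the test through the genotype in which it is high, its call is a description. With no filter on low counts the log2 fold change was -1.75 (edgeR adjusted p = 0.000411).

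**Figure D3:**
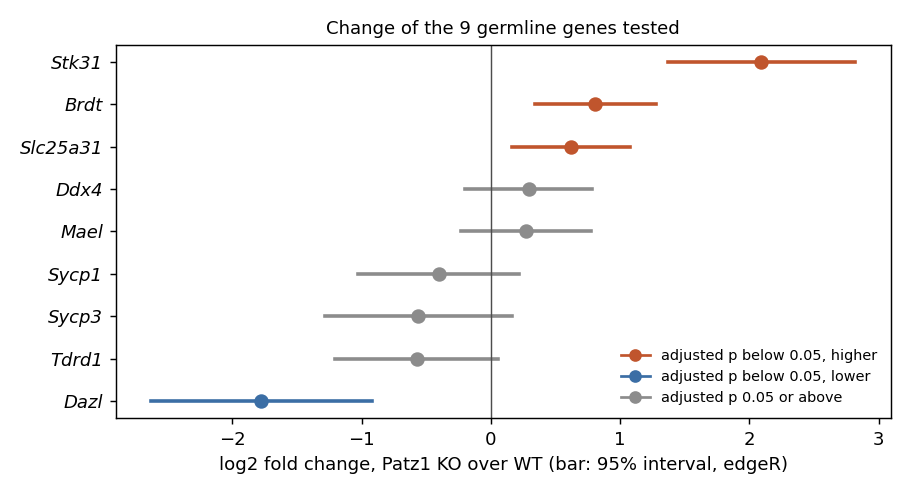
Log2 fold change of the 9 germline genes tested, *Patz1* KO over WT, with 95% intervals from edgeR's fit. The intervals of *Stk31*, *Brdt* and *Slc25a31* lie above 0, that of *Dazl* lies below 0, and the other 5 include 0.

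The piRNA pathway members were not called. *Ddx4*, the RNA helicase known as Vasa, gave 54 and 55 reads in WT against 101 and 76 in *Patz1* KO. The WT mean of 3.54 ± 0.118 CPM lay below the 4.35 ± 0.258 CPM of *Patz1* KO (SD, n = 2 each), and the libraries did not overlap. *Mael*, which acts in transposon silencing, gave 47 and 69 reads in WT against 114 and 73 in *Patz1* KO. For *Ddx4* the log2 fold change of 0.29 had a 95% interval from -0.20 to 0.78 (edgeR adjusted p = 0.319). For *Mael* it was 0.27 with an interval from -0.23 to 0.77 (adjusted p = 0.363). Both intervals include the 0.62 of *Slc25a31*.

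*Tdrd1*, a tudor protein that binds PIWI proteins, gave 37 and 40 reads in WT against 43 and 26 in *Patz1* KO. After scaling, its 2.50 ± 0.0224 CPM in WT lay above the 1.66 ± 0.158 CPM in *Patz1* KO in every library (SD, n = 2 each). For *Tdrd1* the log2 fold change was -0.58 with an interval from -1.21 to 0.057 (edgeR adjusted p = 0.124), and no alternative called it. *Asz1*, an ankyrin repeat protein that anchors the pathway at mitochondria, had 0 counts in both WT libraries and 0 and 1 in *Patz1* KO. It was not tested. A count of 3 would have been 0.201 CPM in the shallowest WT library. The 0 counts in that library therefore do not exclude a level under this, and this limit covers counting error only.

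The pair of synaptonemal complex genes was uneven between replicates. *Sycp1*, which encodes the transverse filament that joins paired chromosomes, gave 46 and 107 reads in WT against 79 and 72 in *Patz1* KO. The WT libraries alone spanned a wider range than the difference between the genotypes. The log2 fold change of *Sycp1* was -0.41 (interval -1.03 to 0.22, edgeR adjusted p = 0.273). Without WT replicate 2 it turned to 0.28 (adjusted p = 0.619). It was called lower without WT replicate 1 (-0.85, adjusted p = 0.0209) and without *Patz1* KO replicate 2 (-0.60, adjusted p = 0.0364).

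*Sycp3*, an axial element protein, gave 40 and 31 reads in WT against 29 and 34 in *Patz1* KO, and the genotypes overlapped. Its log2 fold change was -0.56 (interval -1.28 to 0.16, edgeR adjusted p = 0.190), and it was called lower only without *Patz1* KO replicate 2 (-0.94, adjusted p = 0.0347). *Sycp3* is the only member whose exons overlap another gene, sharing 660 bases with *Chpt1* on the opposite strand. The libraries were stranded, but the strand setting of the counting is not given in the sources used here, so some of these reads may belong to *Chpt1*. *Chpt1* itself had a log2 fold change of 0.048 (adjusted p = 0.784). A listed pseudogene of *Sycp1*, *Sycp1-ps1*, had at most 1 count in any library.

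**Figure D4:**
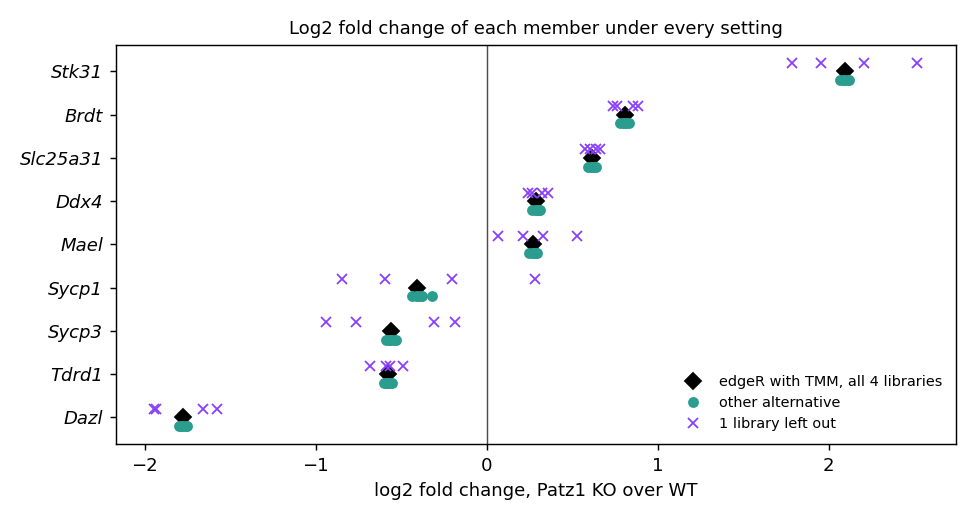
Log2 fold change of each tested germline gene under all settings, with the edgeR fit on 4 libraries as diamonds, fits without 1 library as crosses and the other alternatives as circles. Leaving out a library moves *Stk31* between 1.78 and 2.52 and carries *Sycp1* across 0, from -0.85 to 0.28, and the other 8 genes keep their sign.

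Per kilobase of annotated exon, the levels in WT ran from 2.16 ± 0.483 CPM for *Mael* through *Sycp3* (1.83 ± 0.411), *Slc25a31* (1.75 ± 0.0269), *Sycp1* (1.38 ± 0.724) and *Ddx4* (1.17 ± 0.0390), where each gene overlapped the next in its library values. Below them, and apart from them, stood *Brdt* (0.648 ± 0.0479), followed by *Dazl* (0.482 ± 0.0859) and *Tdrd1* (0.459 ± 0.00411), which overlapped each other, and then by *Stk31* (0.249 ± 0.0878; SD, n = 2 throughout). In *Patz1* KO the highest were *Slc25a31* (2.69 ± 0.118) and *Mael* (2.61 ± 0.143), which overlapped. *Stk31* at 1.07 ± 0.130 CPM per kilobase now overlapped *Brdt* (1.13 ± 0.0521) and *Sycp1* (1.06 ± 0.205). *Tdrd1* (0.305 ± 0.0290) and *Dazl* (0.138 ± 0.0186) were the lowest apart from *Asz1*. All of these levels are low. Ranked by mean CPM, the 9 tested members exceeded between 8.19% and 21.8% of the genes tested.

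Somatic relatives of 3 members, chosen after their values were seen, were far higher per kilobase in both genotypes. *Slc25a4* and *Slc25a5*, the ADP/ATP carriers of somatic cells, stood at 237 ± 6.55 and 229 ± 1.63 CPM per kilobase in WT (SD, n = 2 each). *Slc25a4* had a log2 fold change of 0.19 and *Slc25a5* of -0.081, and neither was called. Of the other BET genes, *Brd3* fell by 0.46 on the log2 scale, and *Brd2* at 30.2 ± 1.48 CPM per kilobase in WT was not called. *Ddx3x*, a somatic helicase related to *Ddx4*, was at 137 ± 7.09 CPM per kilobase in WT and fell by 0.44 on the log2 scale.

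Other genes of the germline went both ways as well. Of 65 further germline genes found in the files, 36 were tested, and 13 were called higher and 6 lower around a median log2 fold change of -0.017. The 19 called of 36 stand close to the 47.9% called over all genes tested. Another 16 of the 65 never exceeded 3 counts. Among the piRNA pathway genes, 5 of 10 tested were higher and 0 lower, where 24.1% of all genes tested were higher and 23.8% lower. Their number of calls was near the 47.9% called in either direction, but all 5 calls were rises. The median log2 fold change of the 10 was 0.059. The 7 not tested did not share a direction, and 2 of them are named after their values were seen. *Tdrd5* gave 13 and 9 reads in WT against 1 and 1 in *Patz1* KO, and *Tdrd6* gave 2 and 3 against 7 and 7. With no filter on low counts, 6 of 17 piRNA pathway genes were called. *Piwil4*, 1 of the 5 rises and named after its values were seen, passed the low-count filter through *Patz1* KO only. *Tdrd7*, a tudor protein also used outside the germline, rose from 14.3 ± 1.36 to 26.1 ± 1.59 CPM (SD, n = 2 each). *Henmt1*, which methylates the 3′ end of piRNAs, rose by 1.79 and *Tdrkh*, which helps to trim them, by 0.49 on the log2 scale. *Henmt1* gave 8 and 13 reads in WT and reached the filter's cutoff in 1 WT library but in both *Patz1* KO libraries.

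Of 16 meiosis genes tested, 6 were higher and 4 lower, or 62.5% called beside 47.9% of all genes. Without WT replicate 1 the 10 calls became 6. *Stra8*, the retinoic acid induced factor of meiotic entry, gave 75 and 108 reads in WT against 6 and 2 in *Patz1* KO. At -4.88 ± 0.406 on the log2 scale (standard error, edgeR adjusted p = 3.36e-08), *Stra8* showed the largest change in either direction among the germline genes tested. It passed the low-count filter through WT only, and *Tex12*, among the 6 and named after its values were seen, through *Patz1* KO only. *Stag3*, a cohesin subunit of meiosis, rose from 6.80 ± 0.635 to 16.3 ± 0.313 CPM (SD, n = 2 each). *Syce1*, a central element protein of the synaptonemal complex, rose by 1.93 on the log2 scale. Of 10 germ cell regulators and spermatogenic genes tested, 2 were higher and 2 lower, or 40.0% called, and without WT replicate 2 the 4 calls became 2. *Sohlh2*, a transcription factor of early germ cells, gave 19 and 29 reads in WT against 267 and 144 in *Patz1* KO (log2 fold change 2.66). *Taf4b*, a TFIID subunit used in the gonads, fell by 1.05 and *Dnd1*, an RNA-binding protein that primordial germ cells need, by 1.10 on the log2 scale.

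**Figure D5:**
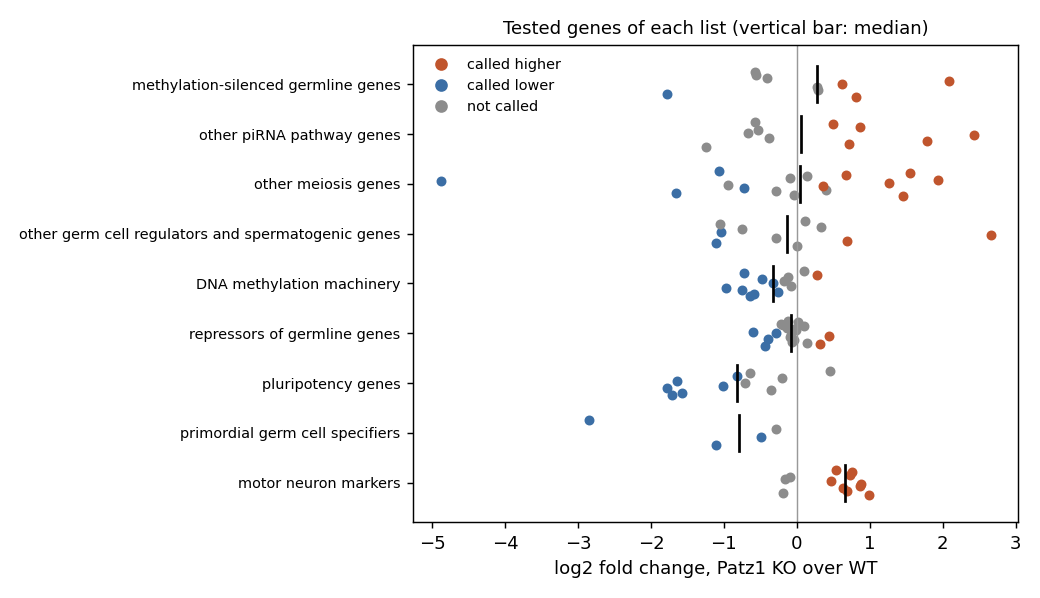
Log2 fold change, *Patz1* KO over WT, of every tested gene in the germline group and in 8 lists beside it, with called genes coloured and a bar at each median. The germline lists spread to both sides, from *Stra8* at -4.88 to *Sohlh2* at 2.66, while the called motor neuron markers all lie above 0 and the called pluripotency genes all lie below 0.

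Of 13 tested genes whose products set, remove or read DNA methylation, 8 were called lower and 1 higher in *Patz1* KO, with a median log2 fold change of -0.33. Over all genes tested, 23.8% were lower and 24.1% higher. *Hells*, a chromatin remodeller required for methylation, fell from 83.2 ± 0.444 to 42.6 ± 1.40 CPM (SD, n = 2 each). *Uhrf1*, which brings DNMT1 to replicated DNA, fell by 0.72 and *Cdca7*, a partner of HELLS, by 0.64 on the log2 scale. The methyltransferases themselves, named here after their values were seen, fell by 0.59 for *Dnmt1*, 0.26 for *Dnmt3a* and 0.75 for *Dnmt3b* on the log2 scale. The calls were not confined to genes that set methylation. Of the TET genes, which act in its removal, *Tet1* fell by 0.48, *Tet3* rose by 0.28 and *Tet2* was not called. *Mbd2*, a reader of methylation, fell by 0.33. These 4 genes were also named after their values were seen. Methylation of the germline promoters was not measured in these libraries, and a part of the DNA methylation genes in the changes of *Stk31*, *Brdt*, *Slc25a31* or *Dazl* was not tested.

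Of 19 chromatin repressors of germline genes, which include PRC1.6 and the H3K9 methyltransferases, 4 were lower and 2 higher. This 31.6% called lies below the 47.9% of all genes tested. *Mga*, the E-box binding subunit of PRC1.6, fell from 218.8 ± 11.3 to 144.2 ± 5.70 CPM (SD, n = 2 each), or -0.60 on the log2 scale. *Cbx1*, a reader of H3K9 methylation, fell by 0.44, and the histone demethylase gene *Kdm1a* rose by 0.44 on the log2 scale. The 13 not called included *E2f6*, named after its values were seen, with a log2 fold change of 0.15 (edgeR adjusted p = 0.211).

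Since ESCs transcribe part of the group, markers of undifferentiated cells and of primordial germ cells were read beside it. Of 11 pluripotency genes tested, 6 were lower and 0 higher, or 54.5% called beside 47.9% of all genes, of which 23.8% were lower. Of these 6, *Nr0b1* and, named after their values were seen, *Dppa5a* and *Fbxo15* passed the low-count filter through WT only. The summed level of all 19 was 250.0 to 270.6 CPM in WT and 189.6 to 217.7 CPM in *Patz1* KO, most of it from *Sox2*, which neural progenitors also express. *Lin28a* fell by 1.01 and *Klf4* by 1.78 on the log2 scale, and *Nr0b1* gave 20 and 16 reads in WT against 6 and 9 in *Patz1* KO. *Pou5f1*, a defining gene of the state, was not tested and gave 7 and 7 reads in WT against 4 and 3 in *Patz1* KO. *Esrrb*, likewise not tested, went the other way, from 0.457 ± 0.113 CPM in WT to 0.795 ± 0.308 CPM in *Patz1* KO (SD, n = 2 each). *Zfp42* was not called (log2 fold change 0.46), and *Utf1* and *Fgf4* were at 0 in all 4 libraries. DESeq2's Wald test called 2 of the pluripotency genes in place of 6. Fits without WT replicate 1 (2 called), WT replicate 2 (3 called) or *Patz1* KO replicate 1 (3 called) also lowered that count. Of 7 specifiers of primordial germ cells, 4 were tested and 3 were lower, where 23.8% of all genes were. DESeq2's Wald test called 0 of them (lowest adjusted p = 0.0564), while 3 had an unadjusted p below 0.05 in it. Without WT replicate 2 edgeR called 1. *Tfap2c* gave 12 and 11 reads in WT against 1 and 3 in *Patz1* KO and passed the low-count filter through WT only, and *Kit*, which other cells use too, fell by 0.49 on the log2 scale. The 3 specifiers not tested did not share a direction. *Prdm14* gave 0 and 0 reads in WT against 4 and 5 in *Patz1* KO, and *Prdm1* gave 2 and 9 against 4 and 4. *Dppa3* had 1 count in all 4 libraries together. The part of such cells in the levels of the germline genes was not tested.

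The neighbours of the 10 genes on their chromosomes went both ways. For each member the nearest tested gene on either side was taken, whatever its distance, so untested genes may lie between. Of these 20 genes, 11 (55.0%) were called, 5 higher and 6 lower, beside 47.9% of all genes tested. The nearest tested genes on both sides of *Stk31* were also called higher. *Fam221a*, 5065 bases away and named after its values were seen, rose by 0.87 on the log2 scale. *Npy*, which encodes neuropeptide Y and lies 353209 bases away, rose from 1.39 ± 0.257 to 4.22 ± 0.325 CPM (SD, n = 2 each). Of the genes beside *Dazl*, *Rftn1*, 88721 bases away, fell by 1.24 on the log2 scale. *Plcl2*, 215767 bases away on the other side, was not called (log2 fold change -0.0032). *Tgfbr3* beside *Brdt* fell by 1.30 on the log2 scale while *Brdt* rose. *Vwa2* beside *Tdrd1* fell by 1.68 on the log2 scale. *Asz1*, which had a single count in the 4 libraries, lies between *St7*, which rose from 31.1 ± 0.997 to 72.5 ± 5.58 CPM (SD, n = 2 each), and *Cftr*, which gave 11 and 10 reads in WT against 1 and 4 in *Patz1* KO and passed the low-count filter through WT only. The neighbours of *Slc25a31*, *Ddx4* and *Sycp3* were not called. Without WT replicate 1 or without WT replicate 2, 7 neighbours were called.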

How the data were processed

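Total RNA from cervical MN cultures was depleted of ribosomal RNA and made into stranded libraries, 2 from WT and 2 from *Patz1* KO. Sample titles mention ESCs, but the source and cell type fields give MNs, and the latter were followed. The authors deposited raw counts, the number of reads per gene symbol, 1 file for each library. The submitters' processing notes name TopHat2 (2.1.1), Bowtie2 (2.3.1), featureCounts (1.6.2), DESeq2 and the build mm10. The annotation and strand setting of the counting are not given in the sources used here.

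Counts were scaled with TMM, filtered with filterByExpr (minimum count 10, 0.604 CPM at the median depth) and tested across all 14269 genes that passed with edgeR's quasi-likelihood test (edgeR 4.0.16, limma 3.58.1, R 4.3.3) at an adjusted p below 0.05. The standard error is the absolute log2 fold change over the square root of F. The common biological coefficient of variation was 7.71%. The test was checked on simulated counts drawn with this common value for every gene, so differences in spread between genes were not part of the check. Positions, exon lengths and overlaps came from GENCODE M21 on GRCm38, and promoters from RefSeq for GRCm38.p6, read in Python 3.11.15 with numpy 2.4.6 and pandas 2.3.3, with plots from matplotlib 3.10.9.

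The members and the gene lists were chosen with earlier results of these data known, from general knowledge, and *Nanos3*, *Dnd1* and *Dppa3* are in 2 lists. *Meioc* and *Rec114* were not found by symbol. Named genes are *Patz1*, the 10 members, from each list the 3 genes of lowest p, and called neighbours with an absolute log2 fold change of at least 1. *Sycp1-ps1*, *Chpt1*, *Plcl2*, *Sox2*, *Tubb3*, *Pou5f1*, *Esrrb*, *Zfp42*, *Utf1*, *Fgf4*, *Prdm1*, *Prdm14* and *Dppa3* were added after their values were seen. As alternatives, the scaling was changed to DESeq2's size factors or to library size, the filter was dropped or raised to 10 counts in each library, a replicate block was added, DESeq2's Wald test (DESeq2 1.42.0) was run, and each library was left out, where the lone library is assumed to vary like the other genotype.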

Additional observations from a re-analysis of the deposited data

How the results depend on the processing

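The 3 rises and the fall of *Dazl* were called alike with DESeq2's size factors, with library size alone and without a filter on low counts. When each library had to reach 10 counts, 0 members were lower, since *Dazl* and *Stk31* could then not be tested, and 3 other piRNA pathway genes were called in place of 5. Leaving out each library in turn gave 1 to 3 members higher and 0 to 3 lower, and only *Sycp1* turned: it was -0.41 with all libraries and ranged from -0.85 to 0.28, the latter without WT replicate 2. Over the same 4 fits the genes called went from 4521, without WT replicate 2, to 7816. The called genes of the lists went from 6 to 11 for meiosis, from 2 to 4 for germ cell regulators and spermatogenic genes, from 2 to 8 for pluripotency and from 1 to 3 for primordial germ cell specifiers, and the called neighbours went from 7 to 12. DESeq2's Wald test called 2 germ cell regulators and spermatogenic genes in place of 4, 2 pluripotency genes in place of 6, 0 primordial germ cell specifiers in place of 3 and 7 neighbours in place of 11. Its call of the members lacked *Slc25a31*.

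The replicate numbers were not treated as pairs in the main fit, and the correlation of the deviations of same-numbered libraries was 0.0485. With 2 libraries for each genotype, this value cannot show whether same-numbered libraries were prepared together. With the replicate block, 7363 genes were called in place of 6837, and 3 members were higher and 1 lower as without it. With 8 to 145 counts in a library for each of the 9 tested members, intervals of the log2 fold changes are wide, and the 5 genes not called are not shown to be unchanged.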
